A study of Mus musculus with 20 samples.

Results

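The collagen chain family was taken as the 44 genes, of 24062 counted in every library, whose symbol reads Col, a number, the letter a and a number. Membership went by symbol alone; no measured value decides it. Each of these genes encodes 1 alpha chain. Collagens are extracellular proteins in which alpha chains wind around each other into a triple helix, either as identical chains or as fixed mixtures of different chains. Fibrillar collagens such as types I and III form the load-bearing fibres of connective tissue, types IV and VI form the basement membrane network and the beaded filaments around cells, and further types sit on fibril surfaces or span the plasma membrane. In fat, adipocytes each lie in a collagen IV basement membrane and are held in a collagen I, III, V and VI matrix. In the pituitary, collagens line the sinusoids and the connective tissue around clusters of endocrine cells.

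Poly(A) RNA was sequenced from male C57BL/6N mice on chow, in iWAT, the inguinal white adipose depot under the skin of the groin, and in the pituitary. The groups were 5 iWAT libraries labelled KLF14 KO, 5 iWAT libraries labelled WT, 5 pituitary libraries labelled KLF14 KO and 5 pituitary libraries labelled WT, where KLF14 KO stands for a germline deletion of the Krüppel-like zinc finger transcription factor gene Klf14. The mice labelled KO were 21 weeks old (numbers 31, 32, 35 and 66) or 19 weeks old (number 50), and those labelled WT were 21 weeks (33 and 34), 19 weeks (48 and 49) or 18 weeks old (56). Age and labelled genotype therefore overlapped only in part, and no label states the deleted allele. No label says that the libraries of a group came from separate animals, or that a number shared between tissues marks the same animal. The word mouse with a number is used throughout only to name the libraries that carry that number. A p-value here therefore sets a difference against library-to-library spread, which may be technical.

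Libraries held 14.8 to 18.7 M counts in iWAT and 13.6 to 17.6 M counts in the pituitary, and collagen genes took 0.507% to 1.61% of the counts in iWAT and 0.113% to 0.149% in the pituitary. Adipocyte markers (5 genes) summed to 5679 to 21365 RPKM in iWAT and to at most 5.63 RPKM in the pituitary, where RPKM is reads per kilobase of exon and per M counts, scaled by TMM over all 20 libraries. Pituitary hormone genes (5 genes) summed to at most 2.35 RPKM in 9 of the 10 iWAT libraries, to 132 RPKM in the iWAT library of KO mouse 32, and to 102932 to 160402 RPKM in the pituitary. Klf14 itself averaged 10.7 ± 0.961 RPKM in pituitary libraries labelled KO, against 5.34 ± 0.578 RPKM in those labelled WT (SD, n = 5 each; log2 fold change 1.004, edgeR adjusted p = 7.64e-05). Its counts were thus higher in the libraries labelled KO, and whether the counted exons lie in the deleted part is not given, so the counts do not check the genotype labels, and the groups are called by their labels throughout. In whole tissue, fewer cells of a type and less RNA per cell cannot be told apart.

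Collagen mRNA was far more abundant in iWAT than in the pituitary, and its make-up differed. The levels of the 44 genes summed to a mean of 1740 ± 827 RPKM in iWAT and 214 ± 15.4 RPKM in the pituitary (SD, n = 10 each). Fibrillar chains made up 61.3% of that sum in iWAT, on average over libraries, against 37.4% in the pituitary. The basement membrane chains held 22.3% in iWAT and 25.4% in the pituitary. Transmembrane collagens, which carry their helix outside the cell on a membrane anchor, held 0.291% in iWAT and 15.4% in the pituitary.

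**Figure D1:**
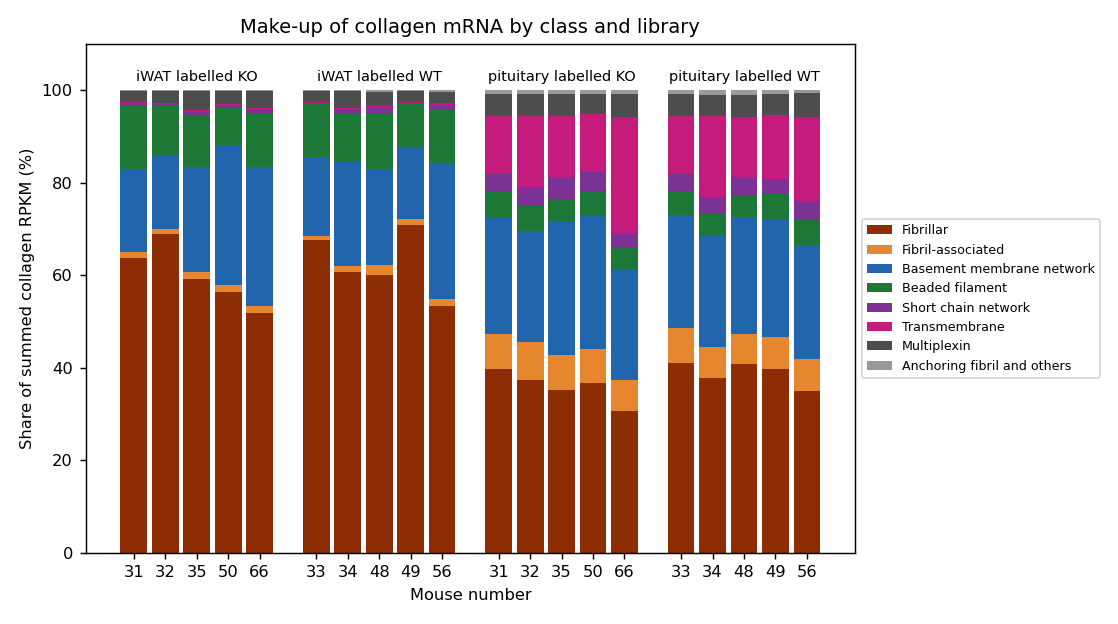
Share of the summed collagen level (RPKM, in percent, y axis) held by each of 8 collagen classes, with 1 bar per library named by mouse number (x axis). Fibrillar chains hold 51.9% to 71.0% in every iWAT library and 30.6% to 41.1% in every pituitary library, and the transmembrane share is highest, 25.0%, in the pituitary library of KO mouse 66.

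Few genes carried most of the collagen mRNA in fat. The 8 most abundant members held 86.9% of the sum of mean levels in iWAT and 59.7% in the pituitary, and 15 of 44 members in iWAT and 10 of 44 in the pituitary averaged below 1 RPKM. In iWAT the order was Col3a1, Col1a2, Col4a1, Col1a1, Col4a2, Col6a1, Col6a2 and Col5a3. Col3a1, the chain of collagen III, lay between 197 and 959 RPKM over the 10 iWAT libraries, with a median of 366. Col1a2 and Col1a1, the 2 chains of collagen I, averaged 284 ± 157 and 211 ± 132 RPKM in iWAT, and Col4a1 and Col4a2, the chains of the ubiquitous collagen IV, averaged 233.7 ± 84.04 and 119.7 ± 43.97 RPKM (SD, n = 10). The spreads of Col1a2, Col4a1 and Col1a1 overlap between libraries, and the place of Col4a1 among them is not resolved. Within every iWAT library, however, Col1a1 lay below Col1a2 (ratio 0.492 to 0.870). Col6a1 at 74.6 ± 32.2 RPKM, Col6a2 at 57.3 ± 29.2 RPKM and Col5a3 at 55.3 ± 19.96 RPKM closed the list and overlapped likewise between libraries. Col6a1 lay above Col6a2 within every iWAT library (ratio 1.15 to 1.54).

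The pituitary had another order: Col1a2, Col4a1, Col13a1, Col4a2, Col27a1, Col25a1, Col3a1 and Col11a1. Col1a2 led with 37.7 ± 5.89 RPKM (SD, n = 10) and lay between 28.1 and 47.0 RPKM. Col4a1 followed with 22.8 ± 2.38 RPKM. Col13a1, a transmembrane collagen of cell-matrix contacts and the neuromuscular junction, averaged 15.8 ± 5.32 RPKM, and Col25a1, a neuronal transmembrane collagen, averaged 11.9 ± 4.20 RPKM. Both had their highest level, 29.5 and 21.6 RPKM, in the library of KO mouse 66. Col4a2 at 12.9 ± 1.47 RPKM, Col27a1 at 11.98 ± 1.35 RPKM and Col25a1 overlapped in their spread, as did Col3a1 with a range of 5.81 to 8.58 RPKM and Col11a1 with a range of 6.47 to 8.40 RPKM. The levels spread more between iWAT libraries than between pituitary libraries: the median coefficient of variation over members was 42.9% in iWAT and 17.8% in the pituitary.

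Between the tissues, 40 of the 44 members passed the test, 21 higher and 19 lower in iWAT (edgeR quasi-likelihood test over all 20 libraries, Benjamini-Hochberg adjusted p below the threshold of 0.05). Over all 17731 genes tested, 43.3% were called higher and 41.2% lower in iWAT, and the members' shares, 47.7% higher and 43.2% lower, lie close to that background. The median log2 fold change of the members was -0.15 and that of all genes 0.04. Col11a2, Col16a1, Col17a1 and Col22a1 were the members that missed the threshold, with log2 fold changes of -0.34, -0.18, -0.35 and -0.12. Col11a2 did pass with DESeq2 (adjusted p = 0.0459), with limma voom (0.0435), without replicate 31 (0.0243) and in libraries labelled WT alone (0.0388). Col17a1 passed without replicate 34 (0.0354), without 66 (0.0122) and without both 50 and 66 (0.0278). Both also passed with the mouse number as a replicate block (0.0388 for Col11a2 and 0.0367 for Col17a1). Col16a1 passed with limma voom alone (0.0263). The directions of Col16a1 and Col22a1 changed sign in some fits. All 6 beaded filament chains and both multiplexins (Col15a1 and Col18a1, heparan or chondroitin sulphate carrying collagens of basement membrane zones) rose, and 3 of 4 transmembrane collagens fell.

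**Figure D2:**
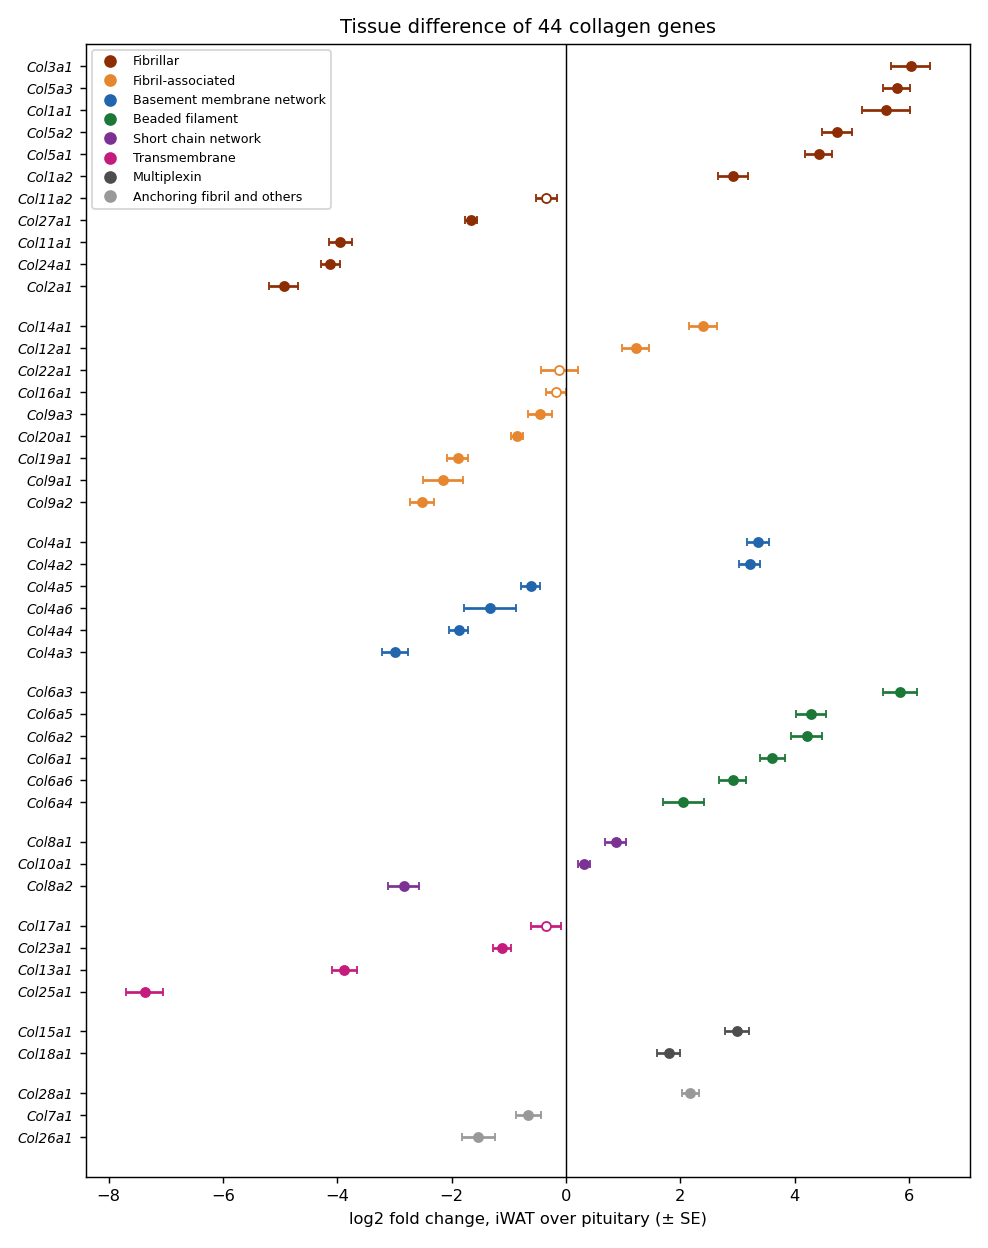
Log2 fold change of iWAT over pituitary (x axis, with its standard error) for all 44 collagen genes, grouped and coloured by class, where filled points passed the adjusted p threshold of 0.05 and open points did not. The values run from 6.03 for Col3a1 to -7.37 for Col25a1, and each of the classes with fibrils, short chains or basement membrane networks has members on both sides of 0.

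Among the 11 fibrillar chains, 6 rose, 4 fell and 1 did not pass. The 6 that rose are the chains of collagens I, III and V. Col3a1 had a median of 366 RPKM in iWAT and 7.24 RPKM in the pituitary, and its log2 fold change was 6.03 ± 0.343 (SE; adjusted p = 3.6e-12). Col5a3, a chain of collagen V, lay between 26.6 and 95.5 RPKM in iWAT and between 0.709 and 1.47 RPKM in the pituitary (log2 fold change 5.78). Col1a1 (5.6), Col5a2 (4.74), Col5a1 (4.42) and Col1a2 (2.92) rose as well, and Col1a2 did so least. The 4 that fell were Col2a1, the chain of cartilage collagen II, Col24a1, Col11a1 and Col27a1. Col24a1, a minor fibrillar chain known from developing bone and cornea, had a log2 fold change of -4.12 ± 0.164 (SE), which is 17.4-fold lower in iWAT. Col11a1, which nucleates fibrils in cartilage, ranged from 0.223 to 0.942 RPKM in iWAT and from 6.47 to 8.40 RPKM in the pituitary, and its log2 fold change was -3.95. Col2a1 held 1 to 7 counts in the iWAT libraries and 80 to 167 counts in the pituitary libraries (log2 fold change -4.94), so its iWAT level rests on very few reads. Cartilage and bone markers (5 genes) summed to at most 2.84 RPKM in iWAT and 3.71 RPKM in the pituitary.

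The 6 beaded filament chains rose together by log2 fold changes between 2.05 and 5.84. Collagen VI is assembled from Col6a1, Col6a2 and a longer chain, which can be Col6a3 or one of Col6a4, Col6a5 and Col6a6. Col6a3 lay between 22.3 and 103 RPKM in iWAT and between 0.692 and 1.06 RPKM in the pituitary (log2 fold change 5.84). Col6a5 lay between 0.421 and 3.10 RPKM in iWAT and between 0.0536 and 0.126 RPKM in the pituitary (log2 fold change 4.28). Col6a2 and Col6a1 rose by 4.21 and 3.60 on the log2 scale. Of the alternative long chains, Col6a4, Col6a5 and Col6a6 lay far below Col6a3 in iWAT, with means of 2.94, 1.61 and 1.27 RPKM in libraries labelled KO and 2.70, 2.24 and 1.51 RPKM in those labelled WT, against 49.2 and 49.7 RPKM of Col6a3.

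The 6 basement membrane chains split by pair. Col4a1 and Col4a2, which form the network present under nearly all epithelia, endothelia and adipocytes, rose by 3.35 and 3.21. Col4a3 and Col4a4, which form with Col4a5 the specialised network of the kidney glomerulus, lung and ear, fell by 2.99 and 1.88 on the log2 scale. Col4a5 and Col4a6, whose chains also form a network of smooth muscle and epithelia, fell by 0.62 and 1.32. Col4a5 did not pass in libraries labelled WT alone (adjusted p = 0.271), and Col4a6 did not pass in libraries labelled WT alone (0.17) or at 21 weeks alone (0.187).

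Of the other classes, the fibril-associated collagens gave 2 that rose, 5 that fell and 2 that did not pass. Col14a1 and Col12a1, which coat collagen I fibrils, rose by 2.4 and 1.22, and Col9a2, Col9a1, Col19a1, Col20a1 and Col9a3 fell. Col9a2, a chain of the cartilage collagen IX, fell by 2.51. The short chain collagens of type VIII moved apart: Col8a1 rose by 0.87 and Col8a2 fell by 2.84. Col10a1, the short chain of growth plate cartilage, rose by 0.31. It did not pass without replicate 31 (adjusted p = 0.061), at 21 weeks alone (0.0793), or in libraries labelled KO or WT alone (0.104 and 0.103). Col25a1 had the largest difference of the family. It held 0 to 17 counts in iWAT libraries and 933 to 2595 counts in pituitary libraries, with medians of 0.0657 and 9.90 RPKM, and its log2 fold change was -7.37 ± 0.327 (SE). Col13a1 fell by 3.88. Of the remaining 3 members, Col28a1 rose and Col26a1 and Col7a1 fell. Col7a1 did not pass with limma voom (adjusted p = 0.0686), at 21 weeks alone (0.152) or in libraries labelled WT alone (0.182). Col9a3 passed narrowly (adjusted p = 0.0486) and did not without replicate 33, 35, 48, 50, 56 or 66, each left out alone (adjusted p from 0.0611 to 0.181). Col9a3 also failed in other fits, among them limma voom (0.0963), 21 weeks alone (0.369) and libraries labelled KO or WT alone (0.294 and 0.0679).

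The ratio of partner chains, each per exon length, differed between the tissues in 9 of 10 pairs that had at least 10 counts on average in both tissues (two-sided permutation tests with 100000 resamples over 10 libraries a tissue, adjusted over 10 pairs). Collagen I holds more Col1a1 chains than Col1a2 chains. The Col1a1 to Col1a2 mRNA ratio was 0.6996 in iWAT, with a range of 0.492 to 0.870, and 0.108 in the pituitary, with a range of 0.0593 to 0.183. Col1a2 mRNA was therefore 9.26 times as abundant as Col1a1 mRNA per length in the pituitary, and the ranges did not overlap (adjusted permutation p = 3.33e-05). Col6a3 to Col6a1 stood at 0.636 in iWAT and 0.140 in the pituitary, and Col8a1 to Col8a2 at 12.9 in iWAT and 0.892 in the pituitary. The iWAT ratio of Col8a1 to Col8a2 ranged from 6.95 to 62.9 and rests on 2 to 27 counts of Col8a2 in each library. Col11a1 to Col11a2 was 0.392 in iWAT and 4.90 in the pituitary. Col4a3 to Col4a4 was 0.569 in iWAT, with a range of 0.313 to 0.821, and 1.29 in the pituitary, with a range of 1.07 to 1.47, so that the more abundant partner differed between the tissues. Col4a5 to Col4a6 varied most within iWAT, between 1.64 and 21.6, against 2.46 to 3.87 in the pituitary. Col6a1 to Col6a2 was 1.34 in iWAT and 1.99 in the pituitary, and Col5a1 to Col5a2 was 0.740 in iWAT and 0.894 in the pituitary (adjusted permutation p = 0.0154). The smallest difference that passed was that of Col4a1 to Col4a2, with 1.95 in iWAT and 1.77 in the pituitary (adjusted permutation p = 0.000643). Col3a1 to Col1a1 did not pass, with 2.33 in iWAT and 1.80 in the pituitary (permutation p = 0.0705). A ratio of exon-length levels also carries any error in the annotated lengths, which cancels between tissues where the same transcripts are used, and transcript use was not tested.

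**Figure D3:**
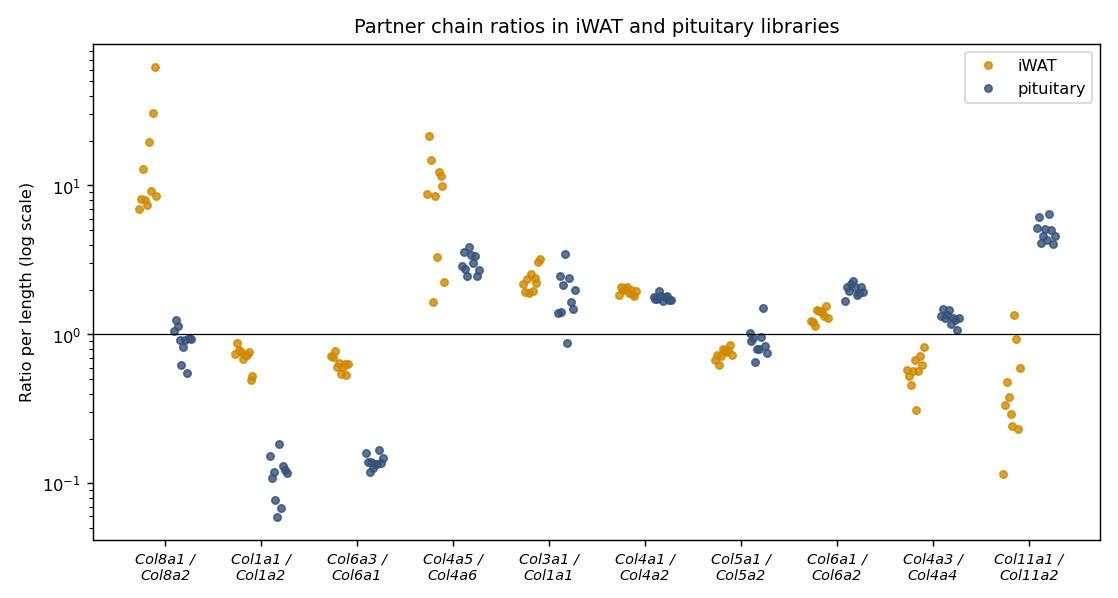
Ratio of partner chain levels per exon length (log axis) in each of 10 iWAT and 10 pituitary libraries, with 10 pairs along the x axis and 1 point per library. The iWAT and pituitary points are apart for Col1a1/Col1a2 (0.6996 and 0.108) and for Col11a1/Col11a2 (0.392 and 4.90), and they mix for Col3a1/Col1a1 (2.33 and 1.80).

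Of the 3 partner pairs whose genes lie head to head, Col4a1 with Col4a2 and Col4a3 with Col4a4 had levels that correlated across libraries, while the correlation of Col4a5 with Col4a6 did not pass. Col4a1 and Col4a2 start 3 bases apart on opposite strands of chromosome 8, at 11312826 and 11312829 in the mm10 coordinates of the count files. Their log2 levels had Pearson's r = 0.991 over the 10 iWAT libraries (Spearman's rho 0.976, permutation p = 1e-05 for r, the smallest that 100000 resamples give, adjusted 5.25e-05 over 21 pairs and tissues) and r = 0.914 in the pituitary (rho 0.891, permutation p = 5e-05, adjusted 0.000175). Leaving out the 2 libraries farthest from the median, r was 0.981 in iWAT and 0.852 in the pituitary. Col4a3 and Col4a4 start 72 bases apart on chromosome 1 and had r = 0.837 in iWAT (rho 0.794, adjusted permutation p = 0.0134) and 0.8003 without those 2 libraries. In the pituitary the labelled groups stood apart in Col4a3, and after taking out the mean of each labelled group r was 0.749 over 10 libraries, a description with no test. Col4a5 and Col4a6, whose starts lie 1343 bases apart on chromosome X, had r = 0.483 in iWAT (rho 0.527, adjusted permutation p = 0.211; 0.488 without the 2 farthest libraries) and r = 0.534 in the pituitary (rho 0.515, adjusted permutation p = 0.165; 0.272 without them). Col6a1 and Col6a2 lie on the same strand of chromosome 10 with 85388 bases between them, and had r = 0.991 in iWAT (rho 0.952, adjusted permutation p = 5.25e-05; 0.994 without the 2 farthest) and 0.822 in the pituitary (rho 0.855, adjusted permutation p = 0.00747; 0.620 without them).

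The collagen I and collagen V pairs moved together in iWAT, where r was 0.979 for Col1a1 with Col1a2 (rho 0.976, adjusted permutation p = 8.4e-05) and 0.988 for Col5a1 with Col5a2 (rho 0.976, adjusted permutation p = 5.25e-05). In the pituitary the same pairs had r = 0.654 (rho 0.491, adjusted permutation p = 0.0672) and r = 0.0354 (rho 0.309, adjusted permutation p = 0.924). The collagen I value there rested on 2 libraries, since r was 0.239 without the 2 farthest from the median. Col1a2 differed between the labelled groups without overlap, and after taking out the mean of each labelled group r for this pair was 0.774, a description with no test. Of the 21 correlations, 11 passed after adjustment, 7 in iWAT and 4 in the pituitary, among the 4 that of Col4a3 with Col4a4. All of them use libraries that share their scaling. In iWAT Col1a1, Col1a2, Col3a1, Col5a1 and Col5a2 were each highest in the same 2 libraries, those of WT mice 33 and 49. Pairs on different chromosomes also correlated in iWAT, such as Col6a3 with Col6a1 (r = 0.989) and Col3a1 with Col1a1 (r = 0.964). How often other gene pairs correlate in these libraries was not tested.

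**Figure D4:**
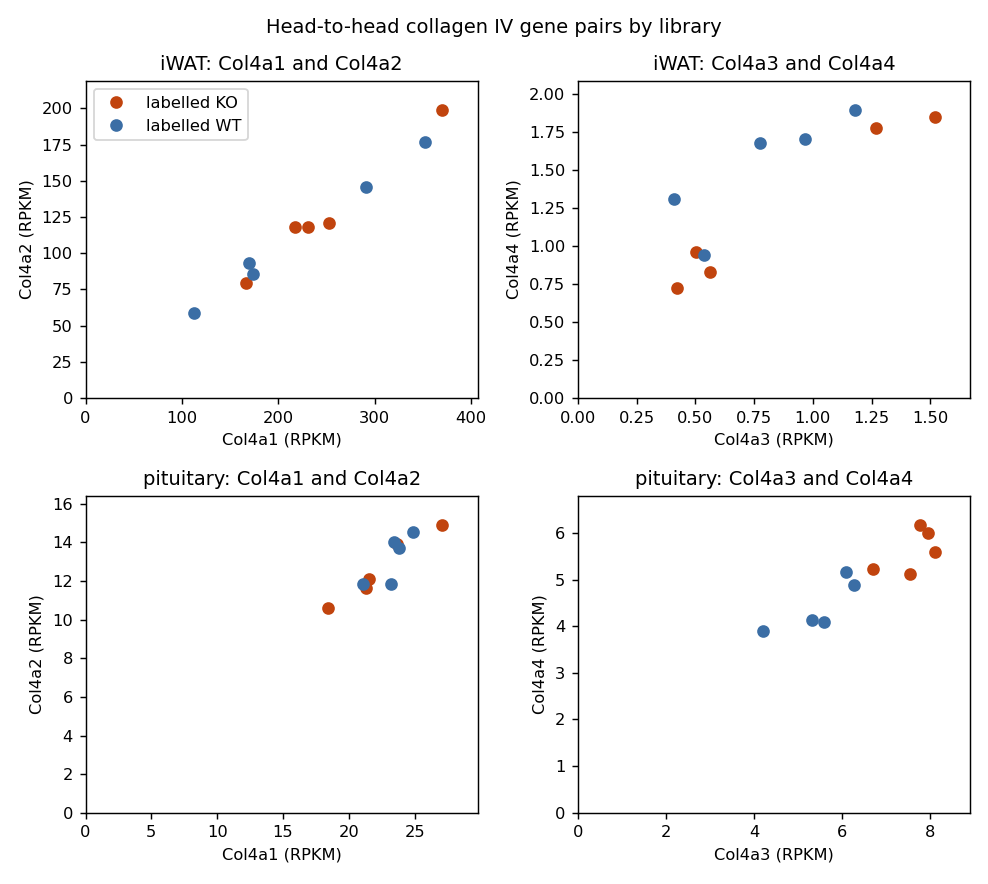
Level of Col4a2 against Col4a1 (left) and of Col4a4 against Col4a3 (right), in RPKM, in iWAT (top) and pituitary (bottom), with 1 point per library coloured by labelled genotype. The Col4a1 and Col4a2 points lie close to 1 line in both tissues (r = 0.991 and 0.914), and in the pituitary the labelled KO points lie at 6.70 to 8.10 RPKM of Col4a3, above the labelled WT points at 4.20 to 6.28 RPKM.

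Whether the labelled genotype changed collagen mRNA was tested within each tissue. In the pituitary all 44 members were tested and 3 passed, all of them higher in libraries labelled KO: Col19a1, Col24a1 and Col4a3. Over all 16389 genes tested, 0.549% were called, and 0.415% were called higher in libraries labelled KO. The median log2 fold change of the members was 0.05, with 25 positive and 19 negative, and that of all genes was 0.00. The largest classes, fibrillar and fibril-associated, gave 1 call of 11 and 1 of 9, the basement membrane network gave 1 of 6, and the other classes gave none.

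Col19a1 encodes a fibril-associated collagen of basement membrane zones, known from mouse muscle and from synapses in the brain. It had 0.545, 0.759, 0.522, 0.505 and 0.591 RPKM in the pituitary libraries of KO mice 31, 32, 35, 50 and 66, against 0.3002, 0.327, 0.283, 0.345 and 0.285 RPKM in those of WT mice 33, 34, 48, 49 and 56. The groups did not overlap. The log2 fold change was 0.93 ± 0.139 (SE; adjusted p = 0.00661), or 1.90-fold, on counts of 74 to 139 in libraries labelled KO and 49 to 54 in those labelled WT. In iWAT it had 14 to 31 counts in libraries labelled KO and 7 to 24 in those labelled WT, and the log2 fold change of 0.50 did not pass (unadjusted p = 0.204).

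Col24a1 had 5.13, 4.91, 5.12, 6.16 and 4.89 RPKM in the pituitary libraries of KO mice 31, 32, 35, 50 and 66, against 3.15, 2.96, 3.94, 3.96 and 3.23 RPKM in those of WT mice 33, 34, 48, 49 and 56. Every library labelled KO lay above every library labelled WT. The log2 fold change was 0.60 ± 0.0926 (SE; adjusted p = 0.00767), or 1.52-fold. Col4a3 encodes a chain of the specialised collagen IV network and the antigen of Goodpasture disease. It had 7.94, 7.53, 8.10, 7.76 and 6.70 RPKM in the same libraries labelled KO, against 5.31, 5.58, 6.08, 6.28 and 4.20 RPKM in those labelled WT. These groups did not overlap either, and the log2 fold change was 0.47 ± 0.0941 (SE; adjusted p = 0.0451).

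**Figure D5:**
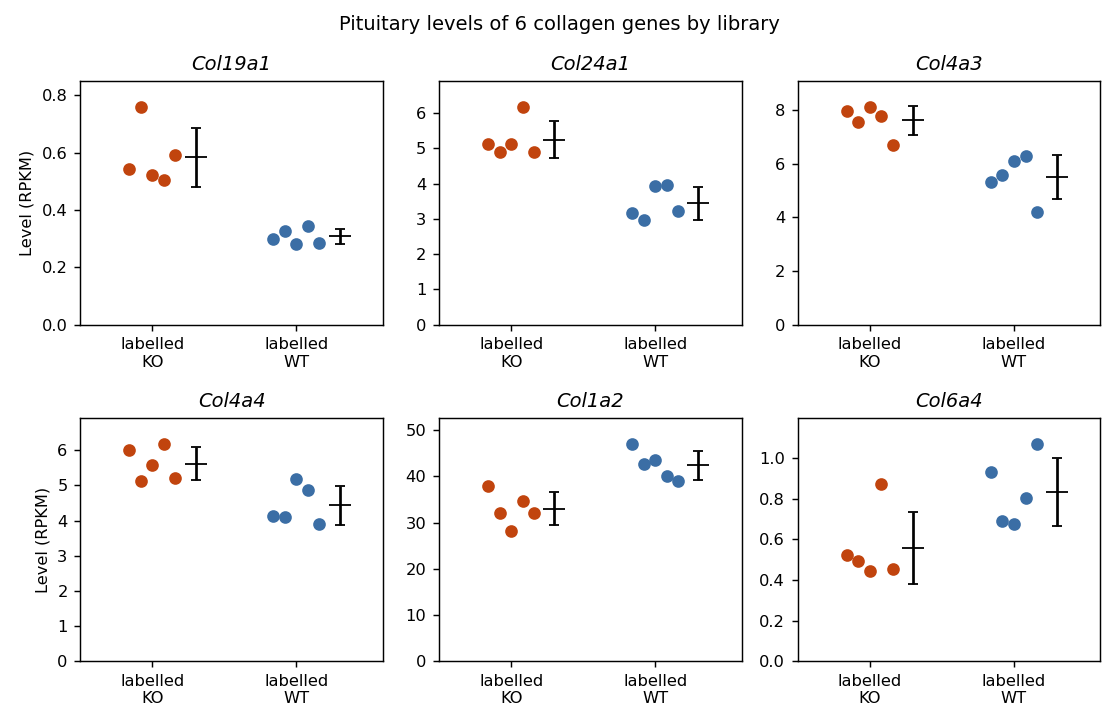
Pituitary level (RPKM, y axis from 0) of the 6 collagen genes with the smallest p between the labelled genotypes, with 1 point per library and mean ± SD (n = 5) beside it. Libraries labelled KO are left of those labelled WT: Col19a1, Col24a1 and Col4a3 are higher in every library labelled KO, Col1a2 is lower in every library labelled KO (28.1 to 38.0 against 39.0 to 47.0 RPKM), and the groups overlap for Col4a4 and Col6a4.

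The next 3 members by p did not pass. Col1a2, the most abundant collagen mRNA of the pituitary, had 38.0, 32.1, 28.1, 34.7 and 32.1 RPKM in libraries labelled KO, against 47.0, 42.6, 43.4, 40.0 and 39.0 RPKM in those labelled WT, with a log2 fold change of -0.36 ± 0.0749 (SE; adjusted p = 0.0535). Its groups did not overlap, and it did pass with RLE scaling (adjusted p = 0.0478), with limma voom (0.0295), with DESeq2 (0.00139) and without replicate 31 (0.0186). Col4a4, the neighbour and partner of Col4a3, averaged 5.61 ± 0.467 RPKM in libraries labelled KO and 4.44 ± 0.553 RPKM in those labelled WT (SD, n = 5 each), with a log2 fold change of 0.34 (adjusted p = 0.099). At the threshold of 0.05 Col4a4 passed with DESeq2 alone (adjusted p = 0.0242). Col6a4, one of the alternative collagen VI chains, had a log2 fold change of -0.59 (adjusted p = 0.235) and passed without replicate 50 (0.0363). In all, 4 of 44 members had groups that did not overlap, 3 higher and 1 lower, against 2.85% of all genes tested.

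The calls depended on the libraries and on the model. Col19a1 and Col24a1 passed in all 10 fits that left out 1 library, with adjusted p of at most 0.0261 and 0.0316. Col4a3 passed in 3 of the 10 (adjusted p from 0.0333 to 0.106), those without replicates 49, 56 or 66. With age as a covariate Col19a1 had an adjusted p of 0.0398, Col24a1 of 0.00317 and Col4a3 of 0.151. Among mice of 21 weeks, 4 labelled KO and 2 labelled WT, Col24a1 passed (adjusted p = 0.0288) while Col19a1 (0.381) and Col4a3 (0.196) did not. In 1 fit over all 20 libraries, whose common spread includes the wider iWAT values, none of the 3 passed (0.881 for Col19a1, and 1.0 for Col24a1 and Col4a3). Few genes of any kind passed in these last fits, 5 of all genes at 21 weeks and 1 in the fit over 20 libraries. The log2 fold change lay between 0.81 and 0.98 for Col19a1, 0.54 and 0.71 for Col24a1, and 0.39 and 0.52 for Col4a3 over 21 alternatives. In the pituitary 0 of the 15 marker lists for other cell types had summed levels whose labelled groups did not overlap. Over all genes tested there, 2.85% did not overlap. Each sum leans on its most abundant genes, such as Dcn for fibroblasts and Scn7a for pituicytes. The part of cell make-up in the calls was not tested. Fibroblast markers summed to 66.5 to 93.2 RPKM in libraries labelled KO and 64.5 to 80.3 RPKM in those labelled WT, pituicyte markers to 19.1 to 43.4 and 20.6 to 29.7 RPKM, and macrophage markers to 21.2 to 91.6 and 22.9 to 30.7 RPKM. The high macrophage sum is the library of KO mouse 50 and the high pituicyte sum that of KO mouse 66. Without both of these mice, a choice made after seeing the data, Col19a1 and Col24a1 passed (adjusted p = 0.0196 and 0.0293) and Col4a3 did not (0.0653).

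The sequence before the start of these genes is shown for Col19a1 and Col24a1, which passed in the pituitary, for Col1a2, which was the non-overlapping member that missed the threshold, and for Col4a4, whose stretch holds the space it shares with Col4a3. Krüppel-like factors are known to bind GC boxes and CACCC boxes. The stretches come from the RefSeq promoter table of build GRCm38.p6, which held 35 of the 44 members and not Col4a3, and run 5′ to 3′ on the strand of the gene up to the base before its start. Capitals mark matches on either strand to CACCC, to the GC box GGGCGG and to CCAAT. A search for the TATA box TATAAA found no match in any of the 4. Col19a1 is on the minus strand at chr1:24587438-24587687, Col24a1 on the plus strand at chr3:145292222-145292471, Col1a2 on the plus strand at chr6:4505368-4505617, and for Col4a4 only the 100 bases at chr1:82586850-82586949 on the minus strand are given, since Col4a3 starts within them on the other strand.
Col19a1: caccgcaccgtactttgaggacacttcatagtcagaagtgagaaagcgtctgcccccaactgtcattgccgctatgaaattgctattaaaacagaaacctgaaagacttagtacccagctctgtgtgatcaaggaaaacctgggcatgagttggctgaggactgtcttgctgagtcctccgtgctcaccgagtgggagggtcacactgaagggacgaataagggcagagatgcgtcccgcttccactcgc
Col24a1: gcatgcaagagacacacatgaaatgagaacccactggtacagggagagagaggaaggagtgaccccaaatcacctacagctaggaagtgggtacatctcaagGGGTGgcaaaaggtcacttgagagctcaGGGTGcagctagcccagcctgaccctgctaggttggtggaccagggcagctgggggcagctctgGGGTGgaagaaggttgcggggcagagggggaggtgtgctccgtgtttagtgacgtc
Col1a2: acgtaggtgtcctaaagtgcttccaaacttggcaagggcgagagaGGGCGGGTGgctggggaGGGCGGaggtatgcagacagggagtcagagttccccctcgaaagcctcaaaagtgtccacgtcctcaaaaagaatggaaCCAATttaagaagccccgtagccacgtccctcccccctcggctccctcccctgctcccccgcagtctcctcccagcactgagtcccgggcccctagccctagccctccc
Col4a4: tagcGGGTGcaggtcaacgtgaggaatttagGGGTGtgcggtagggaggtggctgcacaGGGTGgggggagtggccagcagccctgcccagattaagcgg

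In the 250 bases before its start, Col19a1 had no match to any of the 4 motifs. Col24a1 had 3 matches to the reverse complement of CACCC, whose first letters lie 148, 120 and 56 bases before the start, and none to the others. Col1a2 had 2 GC boxes at 205 and 188 bases, the first of which overlaps a CACCC match at 201, and a CCAAT box at 109. The 100 bases before Col4a4 held 3 CACCC matches at 96, 69 and 41 bases, the last 2 of them between the starts of the neighbours. CACCC occurred in 52.0% of all 32851 windows of 250 bases and in 65.7% of the 35 collagen windows, GGGCGG in 32.7% and 60.0%, CCAAT in 33.8% and 34.3%, and TATAAA in 12.4% and 14.3%. In the last 100 bases CACCC occurred in 27.2% of all windows. These matches describe letters in the windows and show nothing about binding. The start that RefSeq gives for Col1a2 is 4505618, while the annotation used for counting starts the gene at 4505697.

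In iWAT no member passed between the labelled genotypes, which does not show that none differed. Of the 44 members 38 passed the filter on low counts and none was called, against 0.0% of all 16105 genes tested in the same fit. No member reached an unadjusted p under 0.05 in edgeR, where 89 of all genes did, and DESeq2 and limma voom called none either. The members left untested for low counts were Col2a1, Col9a1, Col9a2, Col22a1, Col25a1 and Col26a1. The median log2 fold change of the tested members was -0.08, with 12 positive and 26 negative, against 0.00 over all genes. No member had labelled groups that did not overlap, against 0.0807% of all genes.

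The largest fibrillar chains had wide and overlapping groups in iWAT. Col3a1 had 522, 693, 279, 449 and 259 RPKM in the iWAT libraries of KO mice 31, 32, 35, 50 and 66, against 959, 283, 197, 924 and 203 RPKM in those of WT mice 33, 34, 48, 49 and 56. The group labelled WT held the 2 highest and the 2 lowest libraries. Its log2 fold change was -0.24 ± 0.520 (SE). Col1a1 had a log2 fold change of -0.18 ± 0.564 and Col1a2 of -0.23 ± 0.470 (SE), while Col4a1 and Col4a2 had 0.14 ± 0.316 and 0.15 ± 0.314 (SE), so each of these differences was smaller than its standard error. Their signs turned with single libraries: Col3a1 had 0.10 without replicate 33 and 0.08 without replicate 49, Col1a1 had 0.15 and 0.12, and Col1a2 had 0.04 and 0.07, while Col4a1 had -0.02 without replicate 48 and -0.03 without replicate 50, and Col4a2 had -0.0072 and -0.05. The whole family summed to 1097 to 2357 RPKM in libraries labelled KO and 841 to 3136 RPKM in those labelled WT. Fibroblast markers, which include the matrix genes Dcn and Lum, were highest in the same WT libraries 49 and 33, at 1349 and 927 RPKM, against 435 to 772 RPKM in the other 8; their part in the spread was not tested.

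The smallest p in iWAT belonged to Col4a5, which lay between 1.603 and 3.73 RPKM in libraries labelled KO and between 2.19 and 5.94 RPKM in those labelled WT (log2 fold change -0.58 ± 0.309, SE; unadjusted p = 0.0918). Col23a1, a transmembrane collagen (-0.24), Col6a5 (-0.49), Col4a4 (-0.32) and Col4a6 (-0.91) followed with Col19a1. Col4a6 owed its spread to 2 libraries, 1.65 RPKM in KO mouse 66 and 2.98 RPKM in WT mouse 34, with all 8 others at or below 0.656 RPKM, and without replicate 34 its log2 fold change was 0.22. These 2 libraries also had the highest sums of keratinocyte markers (9.16 and 9.88 RPKM, against 1.57 to 3.62 in the others) and of gland epithelium markers (53.0 and 110 RPKM, against 1.35 to 17.9), and their part in the result was not tested. The milk genes Csn2 and Wap averaged at most 0.135 RPKM in either iWAT group.

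The difference of the genotype effect between the tissues was tested in the fit over all 20 libraries. None of the 44 members passed, against 0.0% of 17731 genes. DESeq2 called 1 gene of all and limma voom none. In edgeR 427 genes, 2.41% of all tested, had an unadjusted p under 0.05. Of the 44 members 1 did, which is 2.27% and close to that share. It was Col4a5, with a difference of -0.71 (edgeR unadjusted p = 0.044). For Col19a1 the difference of log2 fold changes, iWAT minus pituitary, was -0.40 ± 0.384 (SE), for Col24a1 -0.53 ± 0.313 and for Col4a3 -0.33 ± 0.433. A difference between the tissues in the effect on these genes is therefore not shown. Partner chain ratios were set between the labelled genotypes in each tissue. Of 21 ratios tested by exact two-sided permutation over 252 assignments, none passed after adjustment, and the lowest unadjusted p was 0.0635, for Col4a3 to Col4a4 in iWAT, with 0.656 in libraries labelled KO and 0.493 in those labelled WT. With 252 assignments no p below 0.00794 was possible, which after adjustment is 0.167 for a single ratio, so that at least 4 ratios at that limit would have been needed for any to pass and the outcome says little about a single pair.

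Genes that make, cut, cross-link, bind and degrade collagen were taken as a list of 59. None passed between the labelled genotypes, of 56 tested in the pituitary and 54 in iWAT. In the pituitary 5 had an unadjusted p under 0.05, which is 8.93% of those tested, against 10.9% of all genes. Colgalt2, which adds galactose to hydroxylysine of collagen, averaged 2.11 ± 0.142 RPKM in libraries labelled KO and 1.61 ± 0.223 RPKM in those labelled WT (SD, n = 5 each; log2 fold change 0.39, edgeR adjusted p = 0.175). Timp2, an inhibitor of matrix metalloproteinases, Pcolce, which speeds procollagen cutting, Mia3, which exports procollagen from the endoplasmic reticulum, Adamts2, which removes the amino-terminal propeptide, and Plod3, a lysyl hydroxylase, followed with log2 fold changes of 0.19, 0.18, -0.10, -0.34 and 0.16. In iWAT the smallest p were those of the collagen receptors Lair1 (-0.42), Itga2 (-0.29) and Itga10 (0.20), then Mmp14, Mmp9 and the peptidyl-prolyl isomerase Ppib.

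Between the tissues the list leaned toward iWAT: 38 of 58 tested genes rose and 16 fell, that is 65.5% and 27.6%, where 43.3% and 41.2% of all genes did. All 6 fibril-binding proteins and 4 of 5 cross-linking enzymes rose, whereas hydroxylases and folding factors gave 8 that rose and 11 that fell. Fn1 (fibronectin) had a log2 fold change of 5.89, Mmp2 (gelatinase A) of 4.64, Adamts14 (a procollagen protease) of 4.41, Sparc (a collagen-binding glycoprotein) of 4.24 and Ctsk (cathepsin K) of 3.80. Adamts14 held 6 to 14 counts in pituitary libraries labelled KO and 4 to 10 in those labelled WT, so its level there rests on few reads. Sparc averaged 576 ± 113 RPKM in iWAT libraries labelled KO and 592 ± 365 RPKM in those labelled WT, and 30.5 ± 2.69 and 31.4 ± 4.26 RPKM in the pituitary libraries with the same labels (SD, n = 5 each). The genes that fell most were Mmp8 (neutrophil collagenase, -6.30), Fkbp14 (a prolyl isomerase of the endoplasmic reticulum, -2.93), Leprel4 (a partner of the lysyl hydroxylase complex, -2.64), Plod2 (lysyl hydroxylase of the telopeptides, -2.37) and Ddr1 (a collagen receptor kinase, -2.09). Fkbp14 averaged 3.98 ± 0.491 and 3.71 ± 1.54 RPKM in iWAT libraries labelled KO and WT, against 30.0 ± 2.17 and 28.8 ± 1.87 RPKM in the pituitary. Mmp8 lay at 0.0261 to 3.34 RPKM in iWAT and at 17.7 to 22.1 RPKM in the pituitary.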

How the data were processed

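The deposited files hold raw gene counts. Per the file headers, the authors ran featureCounts on exon features of a UCSC mm10 annotation, kept primary alignments, and counted a read for each gene it overlapped. No strand setting appears there, so reads of overlapping genes were not separated; Col9a3 and Col7a1 share exon bases with other genes. The submitters' processing notes list STAR 2.4.0 and featureCounts 1.4.4, with mm10 and GRCm38 as builds. Here each tissue alone and all 20 libraries together were fitted to the counts with edgeR 4.0.16 under R 4.3.3: low genes removed by filterByExpr, libraries scaled by TMM, a robust quasi-likelihood test, Benjamini-Hochberg adjustment over every gene tested, and a threshold of 0.05. The procedure was also run on simulated counts with known fold changes, whose outcome is not given here. Those counts were drawn independently for each library and carry neither the age imbalance nor the outlying libraries of these data. Standard errors were derived from the fold change and its F statistic. RPKM used the annotated exon lengths. Ratios and correlations used log2 values with a pseudocount of 0.5 and permutation tests, run in Python 3.11.15 with NumPy 2.4.6 and SciPy 1.17.1. DESeq2 1.42.0 and limma 3.58.1 were alternatives.

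Genes named are those past the threshold between genotypes, the 6 smallest p in each genotype comparison, the 8 highest levels, the 8 largest differences in each direction between tissues, the partner chains, and for the list of 59 the 6 smallest p and the 5 largest differences; further members complete their class and were named after their values were seen. The members and lists were chosen with earlier results of these data known.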

Additional observations from a re-analysis of the deposited data

Results flagged for a closer look

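In 18 of 168 groups of 5 libraries, 1 library lay far from the other 4 of its group by Dixon's test; chance alone gives about 1 in 20, that is 8.4. In the pituitary, the library of KO mouse 66 was high in Col13a1 (29.5 RPKM, the other 4 of its group at most 16.0), Col25a1 (21.6, at most 10.0), Col18a1 (7.9, at most 6.69), Col23a1 (7.75, at most 4.12) and Col9a3 (1.86, at most 0.961). That library also had the highest sums of the 10 pituitary libraries in markers of pituicytes (43.4 RPKM, the others at most 29.7) and fibroblasts (93.2, at most 80.3). Its sums for folliculostellate cells (51.2, at most 48.7) and mural cells (73.8, at most 72.1) were highest too, but close to those of other libraries. Neither the pituicyte nor the folliculostellate sum is particular to these cells. Their medians were 52.3 and 132 RPKM in iWAT libraries labelled KO, against 22.5 and 42.8 RPKM in pituitary libraries labelled KO. Libraries labelled WT went the same way. Scn7a made up most of the pituicyte sum, and Col25a1, itself on the pituicyte list, was left out of it. The part of these cells in the collagen values was not tested. The pituitary library of KO mouse 50 was high in Col24a1 (6.16 RPKM) and Col6a4 (0.871), and that of KO mouse 35 was low in Col6a1 (5.44). Among pituitary libraries labelled WT, that of mouse 33 was high in Col2a1 (1.91 RPKM) and Col20a1 (5.13), that of mouse 56 was high in Col22a1 (0.24) and that of mouse 49 was low in Col26a1 (0.33).

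In iWAT, the libraries of KO mouse 66 and WT mouse 34 were both high in Col17a1 (2.11 and 2.23 RPKM), the transmembrane collagen of epithelial hemidesmosomes, and in Col4a6 (1.65 and 2.98 RPKM). The library of WT mouse 34 was also high in Col7a1 (0.947 RPKM), the anchoring fibril collagen of skin. Keratinocyte and gland epithelium markers had their highest iWAT sums in these 2 libraries, and their part was not tested. The library of KO mouse 50 was low in Col6a5 (0.421 RPKM, the other 4 of its group at least 1.78). That library had the lowest lymph node marker sum of the 10 iWAT libraries (4.38 RPKM) and the highest blood (7104 RPKM) and adipocyte (21365 RPKM) sums, and their part was not tested.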

How the results depend on the processing

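The counts of members called in iWAT and in the tissue by genotype contrast were 0 under each of 21 alternatives, and so were those of the processing list in both tissues. Genotype ratios gave 0 under 12 alternatives, which shows no stability, since a single ratio could not pass. In the pituitary, 3 members were called; an adjusted p threshold of 0.1 and DESeq2 each gave 5, mice of 21 weeks gave 1 and 1 fit over all 20 libraries gave 0, where all genes gave 192, 288, 5 and 1, against 90; and leaving out 1 replicate at a time gave 2 to 3. Members higher in iWAT numbered 20 to 21 and members lower 16 to 20 under 23 alternatives, and listed processing genes 36 to 39 and 14 to 18. Ratios that differed by tissue numbered 7 to 10, and correlations 10 to 12. Log2 fold changes that changed sign were 26 of 356 in iWAT (17 genes) and 4 of 1241 between tissues (54 genes), none past a threshold; 0 of 273 did in the pituitary (13 genes) and 0 of 84 in the tissue by genotype contrast (4 genes). In iWAT at 21 weeks they were Col19a1 (-0.045), Col6a5 (0.12), Mmp9 (-0.0077), Col4a1 (-0.28) and Col4a2 (-0.27); with limma voom Col1a1 (0.061), Col1a2 (0.029) and Col3a1 (0.16); and without both 50 and 66, an alternative chosen after seeing the data, Mmp9 (-0.14), Col1a1 (0.079), Col4a1 (-0.074) and Col4a2 (-0.10). Leaving out 1 replicate at a time gave -2.17 to 0.22 for Col4a6, -0.34 to 0.017 for Mmp14, -0.038 to 0.45 for Mmp9, -0.52 to 0.15 for Col1a1, -0.46 to 0.072 for Col1a2, -0.47 to 0.10 for Col3a1, -0.032 to 0.37 for Col4a1 and -0.051 to 0.37 for Col4a2. Between tissues they were Col16a1 in libraries labelled WT alone (0.041), and Col22a1 in libraries labelled KO alone (0.38), without both 50 and 66 (0.095) and when 1 replicate at a time was left out (-0.53 to 0.0059). The cause was not tested. With the mouse number as a replicate block, in a paired fit, 21 members were higher and 20 lower in iWAT, 9 ratios differed by tissue, and 0 members passed in the tissue by genotype contrast; correlations of same-numbered libraries ran from -0.059 to 0.095, and 0 of 10 matched their own number best. Members below 1 RPKM, such as Col2a1 and Col25a1 in iWAT, rest on few counts.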
